A study of Mus musculus with 8 samples.

Results

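Lgals3, Lgals1, Cd68, Lyz2, Ctsb, Ctsd and Ctsl are genes often read as signs of a macrophage-like state, and their messages were followed here in smooth muscle cells sorted from the ascending aorta of mice. These 7 genes were taken by symbol from the 11447 gene identifiers in the tables, and all 7 were found. Of them, 5 were listed in all 8 libraries, while Cd68 was listed in 3 and Lyz2 in 2. The question was whether they rose with diet and genotype, and whether a rise went with loss of UMIs (unique molecular identifiers, each counting 1 captured transcript) of Myh11 in the same cells. Myh11 encodes the heavy chain of smooth muscle myosin.

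Galectins are proteins that bind galactose-containing sugars on the cell surface, in the matrix and inside the cell. Galectin-3 (Lgals3) is abundant in macrophages and is also made by cartilage and bone cells, and galectin-1 (Lgals1) is abundant in smooth muscle, fibroblasts and other mesenchymal cells. Cathepsins are proteases of the lysosome, the acid compartment in which cells break down taken-up and worn-out material: cathepsins B (Ctsb) and L (Ctsl) are cysteine proteases, and cathepsin D (Ctsd) is an aspartic protease. CD68 is a membrane protein of the late endosome and lysosome that is widely used as a macrophage marker, and Lyz2 encodes lysozyme of macrophages and other myeloid cells. Smooth muscle cells of diseased arteries can lose contractile proteins and take up lipid, and cultured smooth muscle cells loaded with cholesterol have been described to turn on some macrophage genes.

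The study used droplet single-cell RNA sequencing of GFP-positive cells sorted from the digested ascending aorta. All mice lacked Apoe, the apolipoprotein whose absence raises plasma cholesterol. The first genotype, Apoe-/-, is called Apoe below. The second, labelled TGFBetaRiSMC-Apoe, also had the TGF-beta receptor gene Tgfbr2 knocked out in smooth muscle cells, and is called KO. Each genotype was studied on the diet labelled ND and after 1, 2 or 4 months of high fat diet (1M, 2M, 4M), with 1 library for each of the 8 combinations. The promoter that drove the deletion and the GFP, the number of mice behind a library, and their age and sex are not given in the sources used here. Tgfbr2 itself was taken out of the tables of the KO libraries, so the deletion could not be checked.

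The libraries held 1127 to 2659 cells, 13056 in all, with 9407155 to 19719335 UMIs per library and 107 cell barcodes found in more than 1 library. A gene seen in under 5% of a library's cells was listed at 0 there, so such a listing gives no level. Smooth muscle markers were high in 7 libraries, and KO 4M stood apart: Myh11 was at 74.4 UMIs per 1000000 there, against 1639 to 2606 in the others, and 13.0% of its cells held a Myh11 UMI. Among 18 macrophage markers, KO 1M listed 5 (C1qa, C1qb, C1qc, Cd14 and Cd74, summing to 375.0 per 1000000), KO 4M listed 2 (Cd14 and Trem2, 34.9), KO 2M listed 1 (Cd74, 27.6) and the 5 remaining libraries listed 0. KO 1M held 18 cells with at least 3 macrophage markers, called marker cells here. The other libraries list fewer than 3 of these genes, because of the 5% rule, so no such cell could be found in them and macrophages there were not tested for. With 1 library per genotype and diet, cells were not treated as replicates, and p-values come from the fits across libraries with limma described under the processing.

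Lgals3 was the member that varied most. It was higher at 2M and 4M than on ND in both genotypes, and higher in KO than in Apoe on every diet. In the Apoe libraries it stood at 65.1 UMIs per 1000000 of the library (CPM) on ND, 64.3 at 1M, 157.3 at 2M and 360.0 at 4M. In KO it stood at 128.4, 215.7, 599.1 and 2219 in the same order. The ratio of KO to Apoe was 1.97 on ND, 3.36 at 1M, 3.81 at 2M and 6.16 at 4M. On the log2(CPM + 1) scale the difference was at least 1 at 1M (1.73), 2M (1.92) and 4M (2.62), where 0.76%, 1.16% and 6.59% of genes listed in both libraries were higher by that much. On ND (0.97) it was under 1, as for every member, while 0.749% of genes were higher and 1.37% lower by at least 1. No member was lower by that much at 1M or 2M, where 0.77% and 2.17% of genes were. The share of cells with an Lgals3 UMI ran from 29.7% (Apoe ND) to 99.5% (KO 4M). With each cell thinned to 2500 UMIs, so that depth was equal, the share was 11.6%, 11.8%, 20.2% and 24.7% in Apoe and 19.8%, 27.8%, 45.8% and 92.4% in KO. In KO 1M, 22.5% of Lgals3 UMIs came from the 18 macrophage-marker cells, and without those cells its level was 170.1 and its difference from Apoe 1M was 1.39.

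**Figure D1:**
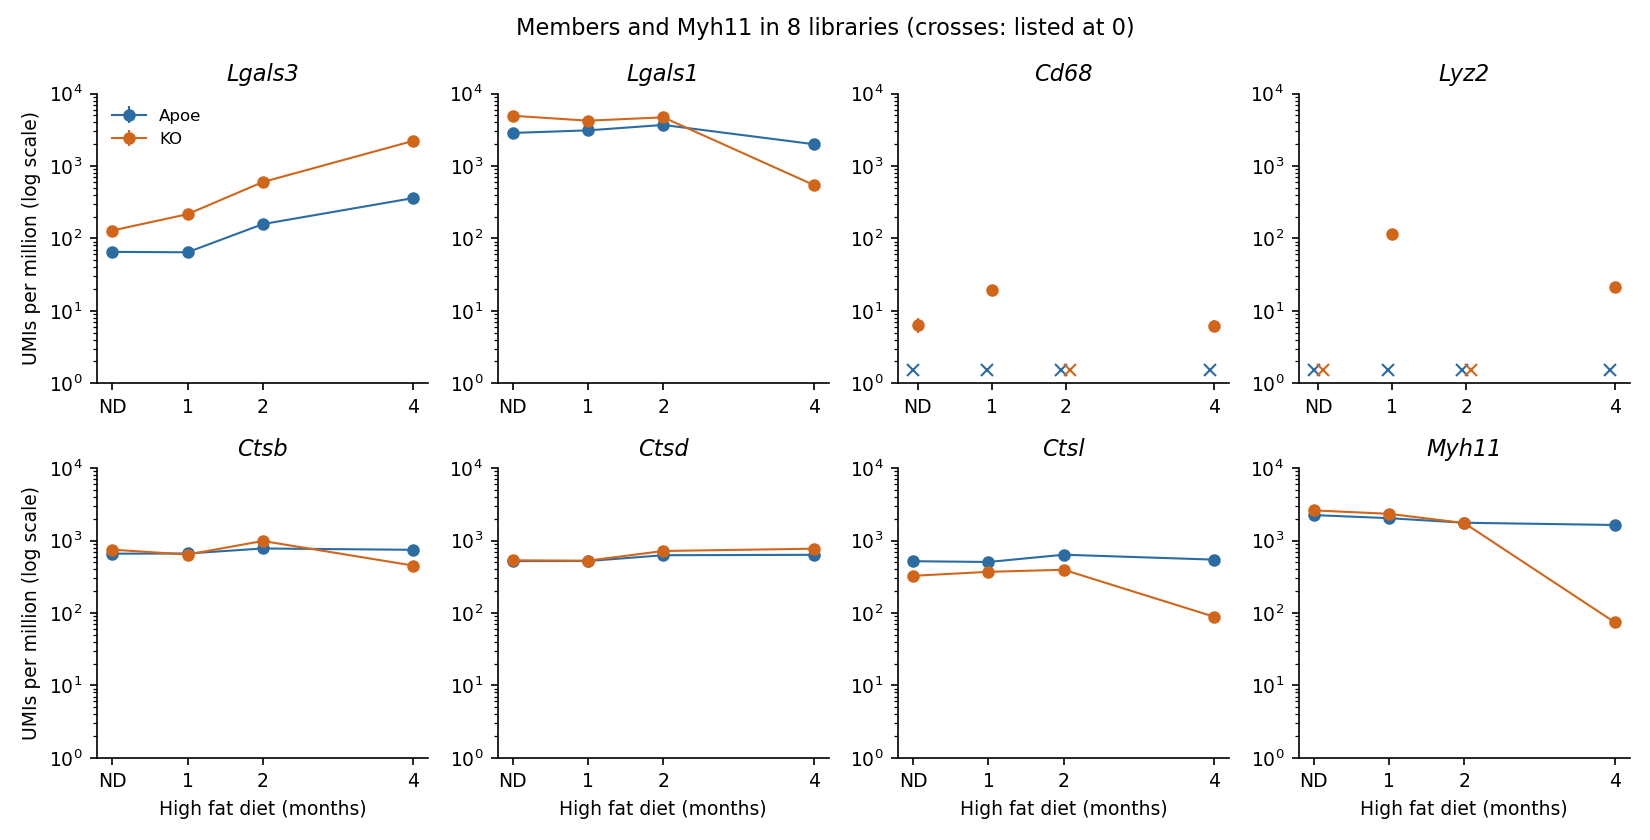
Level of each member and of Myh11 in CPM (log axis) against months of high fat diet, with 1 point per library, Apoe in blue and KO in orange. Bars are exact Poisson 95% intervals and are mostly smaller than the points, and crosses mark listings at 0, which have no level. Lgals3 in KO lies above Apoe on each diet and reaches 2219 at 4M, while Lgals1 and Ctsl fall to 546.4 and 88.5 in the same library as Myh11 falls to 74.4.

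Across libraries, the slope of Lgals3 within KO passed the threshold, and its genotype effect did not. The mean log2 value per cell rose by 0.87 ± 0.11 (SE, 8 libraries in the fit) per month in KO, with an adjusted p of 0.0178. In Apoe the slope was 0.12 ± 0.11 (adjusted p = 0.750). On the log2(CPM + 1) scale of pooled UMIs, which sums over cells before the log, the slopes were 1.05 ± 0.09 in KO (adjusted p = 0.0333) and 0.67 ± 0.09 in Apoe (adjusted p = 0.563), and their difference was 0.39 (adjusted p = 0.201). The difference of the slopes of mean log2 values, 0.75 ± 0.16, had an adjusted p of 0.226, so the slopes were not shown to differ. The genotype effect, KO minus Apoe with diet as a factor, was 1.24 ± 0.55 (adjusted p = 0.426), although KO was higher on 4 of 4 diets. The KO slope rested on KO 4M: without that library it was 0.42 ± 0.07 with an adjusted p of 0.179, and 0 of 9226 genes passed. The call was also lost without the 1M libraries (0.84) or the ND libraries (1.08), with adjusted p of 0.178 and 0.0701. In those fits 0 of 9251 and 0 of 9249 genes passed.

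Lgals1 went the other way at 4M. Its level in Apoe was 2855, 3099, 3682 and 1996 CPM on ND, 1M, 2M and 4M, and in KO it was 4930, 4213, 4688 and 546.4. KO was thus above Apoe on 3 diets, by 0.79, 0.44 and 0.35 on the log2 scale, and below it at 4M by 1.87, where 17.0% of genes were lower by at least 1. Nearly every cell held an Lgals1 UMI in 7 libraries (98.6% or more), against 78.8% in KO 4M. The mean log2 value fell by 0.87 ± 0.18 per month in KO (adjusted p = 0.0358). Without KO 4M that slope was -0.15 (adjusted p = 0.680). The slope in Apoe was -0.20 ± 0.18 (adjusted p = 0.751), and the genotype effect over the 4 diets, -0.12 ± 0.51, mixed the opposite signs (adjusted p = 0.921).

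The 3 cathepsins did not move together. Ctsl, cathepsin L, was lower in KO on every diet: 518.2, 505.6, 636.9 and 544.5 CPM in Apoe on ND, 1M, 2M and 4M, against 325.8, 369.6, 394.8 and 88.5 in KO. The 4 KO values all lay below the 4 Apoe values, as they did for 6.91% of the 7994 genes listed in all libraries. The difference was -0.67, -0.45, -0.69 and -2.61 on the log2 scale, and it reached 1 at 4M. The genotype effect was -0.75 ± 0.21 with an adjusted p of 0.261. Without the 2 libraries at 4M it was -0.51 ± 0.02 with an adjusted p of 0.0126, and 4.15% of 9210 genes then passed. Ctsl also fell within KO by 0.30 ± 0.07 per month (adjusted p = 0.0411), and the slope was -0.011 without KO 4M (adjusted p = 0.933).

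Ctsb, cathepsin B, had no ordered change with diet. Its level was 658.1, 662.0, 776.5 and 744.4 CPM in Apoe and 748.3, 639.9, 986.0 and 450.7 in KO, so the lowest and the highest values were both in KO. Its genotype effect was 0.04 ± 0.11 (adjusted p = 0.880), and its slope in KO was -0.11 ± 0.06 (adjusted p = 0.248). Ctsd, cathepsin D, was the steadiest member. It stood at 519.3, 521.2, 626.4 and 634.9 in Apoe and at 532.8, 526.8, 716.9 and 771.5 in KO. Both genotypes were higher at 2M and 4M than on ND and at 1M, but the slope in KO, 0.13 ± 0.04, missed the threshold (adjusted p = 0.0544). The genotype effect of Ctsd was 0.18 ± 0.11 (adjusted p = 0.545).

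Of the 5 members that passed the filter of the fits (a mean share of cells of 5% or more), 0 passed for the genotype effect, for which 0.0216% of 9253 genes passed as higher and 0.13% as lower, 0.151% together. At an unadjusted p under 0.05, Ctsl alone among them passed, and 14.0% of all genes did. For the slope common to both genotypes 0 of 5 passed (0.151% of all genes passed as higher and 5.4% as lower, 5.55% together). At an unadjusted p under 0.05, Lgals3 (0.50 ± 0.17 per month) and Lgals1 (-0.54 ± 0.18) did, as did 28.4% of all genes. The slope within Apoe and the difference of slopes had 0 calls among the members and 0.0% among all genes, while 12.6% and 21.1% of genes had an unadjusted p under 0.05. For the former 0 of 5 members did, and for the latter Lgals3, Lgals1, Ctsd and Ctsl did. For the slope within KO 1 member rose (6.8% of genes did) and 2 fell (15.7% of genes did). The share of members called for that slope was 3 of 5, beside 22.5% of all genes. At an unadjusted p under 0.05, Ctsd also passed, and 43.3% of genes did.

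**Figure D2:**
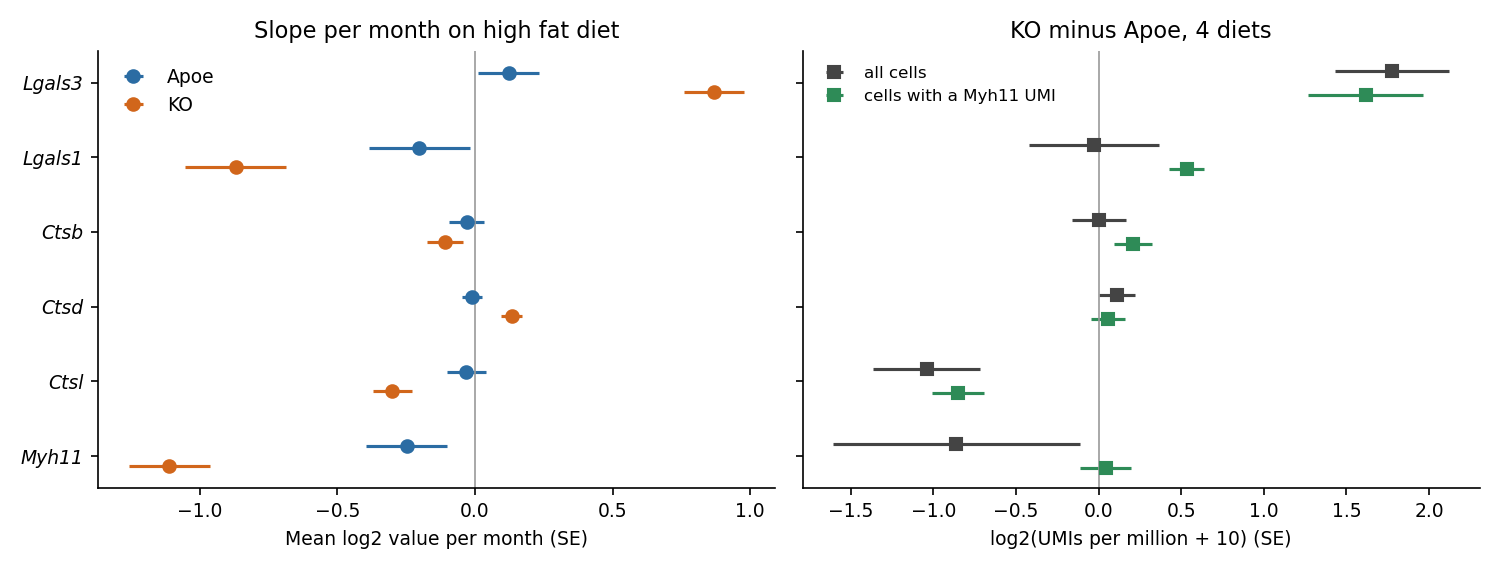
Fitted effects with standard errors for the 5 members in all libraries and for Myh11. The left panel gives the slope per month of high fat diet in each genotype (mean log2 value), and the right panel gives KO minus Apoe over 4 diets on the log2(CPM + 10) scale in all cells and in cells with a Myh11 UMI, both thinned to 2500 UMIs. Lgals1 lies at -0.03 in all cells and at 0.53 in cells with a Myh11 UMI.

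Cd68 and Lyz2, the members closest to macrophage identity, were at the limit of detection in the smooth muscle libraries. Cd68 was listed at 0 in all 4 Apoe libraries and in KO 2M. It stood at 6.32 CPM in KO ND (6.48% of cells), 19.2 in KO 1M (7.91%) and 6.17 in KO 4M (5.64%), just above the 5% below which a gene is listed at 0. In KO 1M, 59.1% of the Cd68 UMIs lay in the 18 macrophage-marker cells, and without them its level was 7.98. Most cells with Cd68 held 1 UMI: 69 of 73 in KO ND, 85 of 103 in KO 1M and 77 of 89 in KO 4M.

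Lyz2 was listed in KO 1M and KO 4M alone, at 113.6 and 21.5 CPM. In KO 1M, 90.0% of its 1361 UMIs were in the 18 macrophage-marker cells, where it reached 6118 CPM, and without these cells the level was 11.5. In KO 4M a single cell held 211 of the 393 Lyz2 UMIs, and 152 of the 163 cells with Lyz2 held 1. The identity of that cell was not tested, since KO 4M lists 2 macrophage markers. After thinning, Lyz2 was seen in 4.15% of the KO 1M cells with 4 or more Myh11 UMIs, cells with a median depth of 8744 UMIs. In KO 4M it was seen in 2.24% of cells without Myh11 (median depth 11348) and in 4.72% of the 106 cells with Myh11, while its level was 36.4 and 18.9 CPM in the same classes, the former with the cell of very high Lyz2. In KO 1M cells at 0 Myh11 UMIs after thinning, Lyz2 was seen in 17.4% and Cd68 in 19.6%, and without the marker cells in 0.0% and 2.70%. Cd68 was seen in 1.90% of KO 4M cells without Myh11 and in 0.943% of those with it, which is 1 cell. Both genes failed the filter of the fits and have no test.

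To ask whether the members rose with or without loss of Myh11, each cell was thinned to 2500 UMIs and placed by its Myh11 UMIs: 0, 1 to 3, or 4 and more. Cells at 0 made up 1.27%, 2.15%, 3.31% and 18.5% of cells in Apoe on ND, 1M, 2M and 4M, and 1.51%, 3.53%, 10.3% and 93.3% in KO. A cell at 0 after thinning need not lack Myh11: at full depth a UMI was present in 31 of 32 such cells in Apoe 1M, 87 of 88 in Apoe 2M and 36 of 46 in KO 1M. It was present in 87 of 229 in Apoe 4M, 129 of 233 in KO 2M and 99 of 1471 in KO 4M. The class at 0 thus held mainly cells with no Myh11 at any depth only in KO 4M and Apoe 4M. The contractile list summed to 7471 CPM in the class at 0 of Apoe 4M and to 43150 in cells with Myh11, and in KO 4M to 2289 and 38774.

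In 6 of 8 libraries Lgals3 was higher the fewer Myh11 UMIs a cell held. In Apoe 4M it stood at 950.2 CPM in cells with 0 Myh11 UMIs, 186.1 in cells with 1 to 3, and 67.2 in cells with 4 or more. In KO 2M the 3 classes stood at 1779, 404.8 and 275.9. In KO 4M they stood at 2228, 1124 and 725.6, where the last class held 43 cells. Apoe 2M gave 272.7, 148.1 and 113.2. KO ND gave 470.6 (17 cells), 166.5 and 92.2, and KO 1M gave 904.3, 266.7 and 158.9. Neither Apoe ND (88.9 in 18 cells, 107.8 and 50.1) nor Apoe 1M (62.5, 74.1 and 52.9) had this order. Seen from the other side, a Myh11 UMI was present in 52.8% of the Apoe 4M cells with Lgals3 and in 90.9% of those without it. In KO 2M these shares were 82.6% and 95.7%.

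In KO 1M the order rested on the marker cells. The 46 cells without Myh11 had 904.3 CPM, and the 37 left after removing the 9 marker cells among them had 75.7 (13.5% of cells with a UMI). That is below the 159.1 of the KO 1M cells with 4 or more Myh11 UMIs. At 1 month on the diet, no excess of Lgals3 was seen in these 37 low-Myh11 cells. Marker cells could not be sought in Apoe 4M, KO 2M and KO 4M, and the part of macrophages in their excess was not tested.

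The difference between cells without and cells with a Myh11 UMI was tested over the 6 libraries with at least 20 cells in each class, on the log2(CPM + 10) scale. For Lgals3 it was 1.68 ± 0.33, positive in 6 of 6 libraries with all cells (0.07, 1.06 and 3.07 in Apoe 1M, 2M and 4M, and 2.25, 2.45 and 1.20 in KO 1M, 2M and 4M), with an adjusted p of 0.0307. Lgals3 was the 1 member of 5 that passed, where 1.06% of 9094 genes passed as higher and 3.11% as lower, 4.17% together. Lgals1 also had an unadjusted p under 0.05, as did 22.9% of genes. Without the marker cells KO 1M turned to -1.02, the difference over libraries was 1.14 ± 0.44 and the adjusted p was 0.164. The call was also lost without Apoe 4M (1.41), KO 1M (1.57), KO 2M (1.53) or KO 4M (1.78), with adjusted p from 0.0622 to 0.121, and with Tagln in place of Myh11 as the class gene (1.02, adjusted p = 0.170).

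For the other members the difference between the classes did not pass the test. Lgals1 was lower without Myh11 by -0.72 ± 0.33 (adjusted p = 0.216), and its sign differed between libraries: 0.32 and 0.02 in Apoe 1M and 2M, but -0.68 in Apoe 4M and -0.46, -0.81 and -2.73 in KO 1M, 2M and 4M. In KO 4M Lgals1 rose step by step with Myh11, from 457.1 CPM at 0 Myh11 UMIs to 2413 at 1 to 3 and 4093 at 4 or more. In the same class Lgals1 stood at 4405 in KO ND, 4106 in KO 1M and 4884 in KO 2M. The difference was 0.07 ± 0.24 for Ctsb, 0.26 ± 0.29 for Ctsl and 0.36 ± 0.18 for Ctsd, with adjusted p of 0.882, 0.627 and 0.260. Ctsd was higher without Myh11 in 6 of 6 libraries, by 0.09 to 1.09. For Ctsb and Ctsl the lowest difference was in KO 4M (-1.03 and -1.05). In KO 1M it was 1.01 for Ctsb and 1.73 for Ctsl, and without the marker cells it was 0.13 and 1.83. Fibroblast markers summed to 6696 CPM in the KO 1M cells at 0 Myh11 UMIs after thinning and to 244.3 in the cells with a Myh11 UMI. The part of these markers in the difference of Ctsl was not tested.

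**Figure D3:**
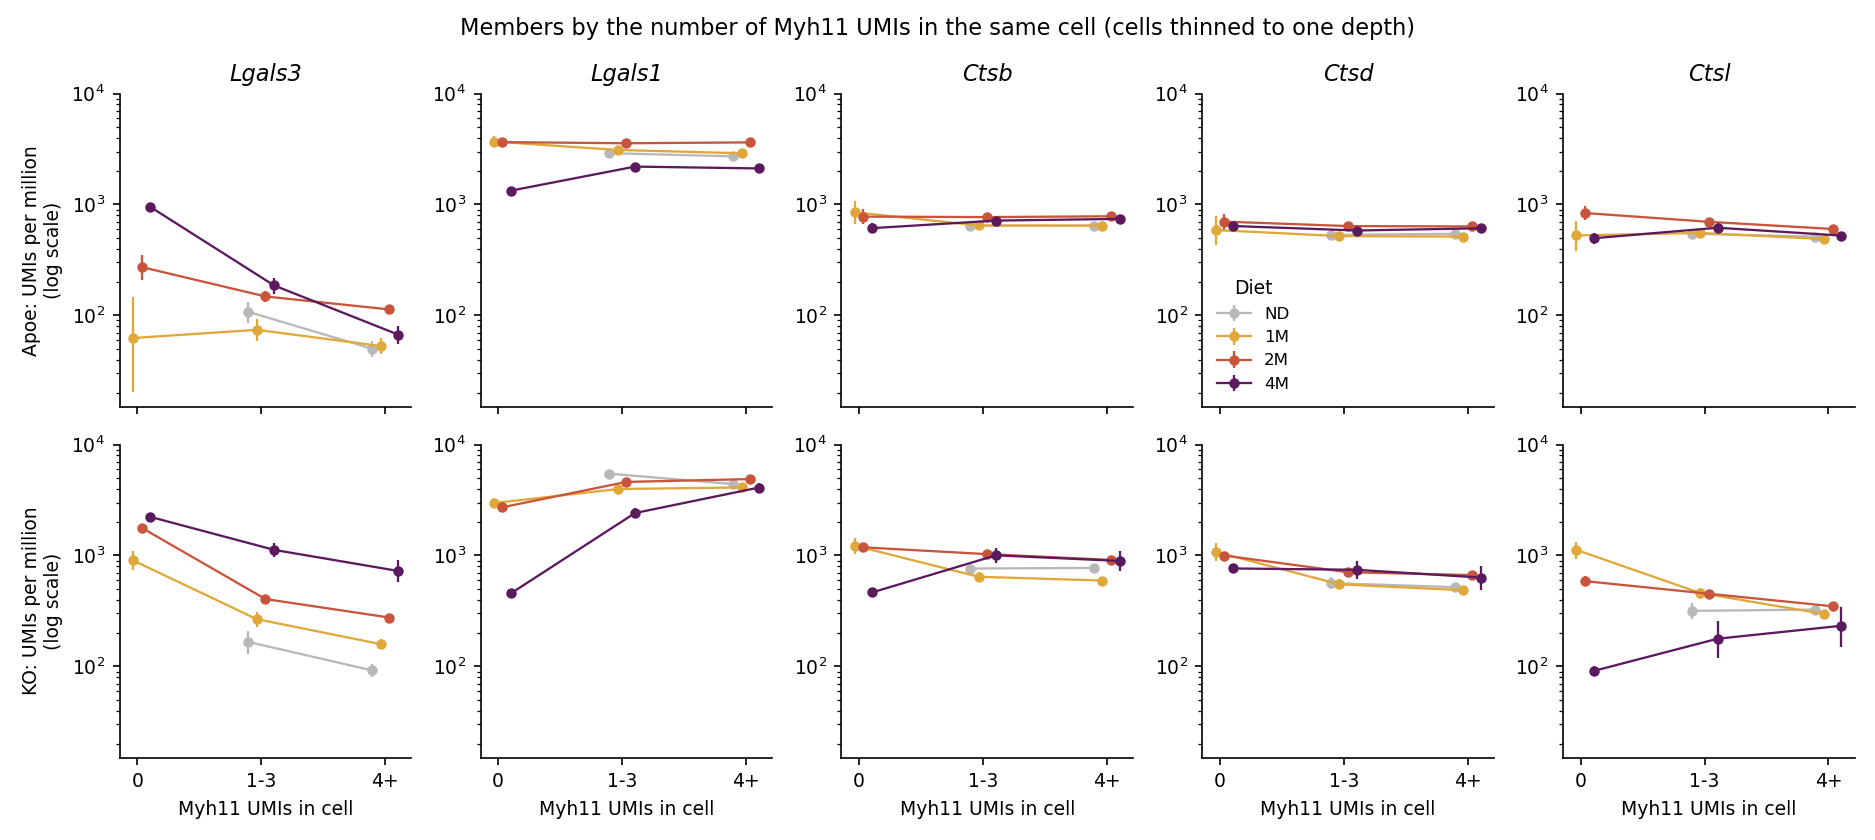
Level of the 5 members in CPM (log axis) in cells with 0, 1 to 3 and 4 or more Myh11 UMIs, Apoe in the upper row and KO in the lower row, coloured by diet. All cells are thinned to 2500 UMIs, bars are exact Poisson 95% intervals, and classes under 20 cells are left out. Lgals3 falls from left to right in each KO library and in Apoe 2M and 4M, although in KO 1M the left point is 75.7 without the marker cells, and its KO lines are stacked by months on the diet also at 4 or more Myh11 UMIs (92.2 to 725.6), while Lgals1 in KO 4M climbs from 457.1 to 4093.

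Lgals3 was also higher in KO cells that had kept Myh11. Among cells with 4 or more Myh11 UMIs it stood at 50.1, 52.9, 113.2 and 67.2 CPM in Apoe on ND, 1M, 2M and 4M. In KO the same class stood at 92.2, 158.9, 275.9 and 725.6, higher than Apoe on 4 of 4 diets and in the order of months on the diet. Over all cells with a Myh11 UMI the KO minus Apoe effect for Lgals3 was 1.62 ± 0.35 on the log2 scale (adjusted p = 0.0778, unadjusted p = 0.00226), and the common slope was 0.49 ± 0.11 per month (adjusted p = 0.0786). Neither passed the threshold, which 1.4% and 0.36% of genes passed. In all thinned cells pooled, on the log2(CPM + 10) scale, the common slope was 0.79 ± 0.11 and passed (adjusted p = 0.0398), where 0.371% of genes passed. It did not pass as the mean log2 value of thinned cells (0.29 ± 0.10, adjusted p = 0.206) or as pooled UMIs of unthinned cells (0.86 ± 0.10, adjusted p = 0.0920). The genotype effect there was 1.78 ± 0.34 (adjusted p = 0.184), and 0.11% of genes passed. Among cells without Myh11 the genotype effect was 2.51 ± 0.47 over 6 libraries (adjusted p = 0.225). There 0.0% of genes passed, and Lgals3 alone of the members had an unadjusted p under 0.05, beside 9.6% of genes. Without the marker cells, a fit added after these data were seen, the effect was 1.37 ± 0.48 (adjusted p = 0.509). With Cnn1, another contractile gene, as the class gene it was 2.09 ± 0.43 (adjusted p = 0.0206) and 1.64% of genes passed. Apoe 1M had 14 cells without Cnn1 and was left out, so this fit held 5 libraries and compared the genotypes at 2M and 4M only.

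Droplets can carry free RNA from other cells, and the chondrocyte and bone list moved with Lgals3 in the Myh11 classes. In KO 4M that list summed to 5805 CPM in cells with 4 or more Myh11 UMIs and to 44673 in cells at 0. The former was 13.0% of the latter, while for Lgals3 the level in the first class was 32.6% of that in the second. In KO 2M the list was at 278 and 13614 CPM (2.04%), and Lgals3 was at 15.5%. In Apoe 4M the list was at 278 and 18451 CPM (1.51%), and Lgals3 was at 7.08%. The part of free RNA in the level of Lgals3 in Myh11-positive cells was not tested.

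In cells with Myh11, Lgals1 and Ctsl were ordered by genotype. Lgals1 was higher in KO on 4 of 4 diets: 2756, 2952, 3602 and 2137 CPM in Apoe against 4569, 4077, 4792 and 3094 in KO. The 4M libraries, opposite in sign over all cells, thus had the sign of the other diets once cells without Myh11 were set aside. That left 106 cells (6.72%) in KO 4M and 1006 (81.5%) in Apoe 4M. The chondrocyte and bone list summed to 12974 CPM in the former and to 576.5 in the latter. For Lgals1 the effect was 0.53 ± 0.11 with an adjusted p of 0.0607, which missed the threshold. Ctsl was lower in KO on 4 of 4 diets, at 520.3, 506.6, 636.2 and 553.1 in Apoe against 324.0, 331.2, 382.4 and 200.0 in KO, with an effect of -0.85 ± 0.16 and an adjusted p of 0.0533. Ctsb and Ctsd differed by 0.21 ± 0.12 and 0.06 ± 0.10 (adjusted p = 0.401 and 0.811). In these cells 0 of 5 members and 1.4% of 9096 genes passed for the genotype effect. At an unadjusted p under 0.05, Lgals3, Lgals1 and Ctsl passed, beside 17.7% of genes. The contractile list, 17 genes, had 1 gene that passed as higher (Actg2) and 0 that passed as lower in the same fit.

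The cells without Myh11 UMIs were not alike in the members. A split by Col2a1, the type II collagen of cartilage, was added after these data were seen and is a description without a test. In KO 2M the 169 cells with neither gene had 3415 CPM of Lgals1, 1432 of Ctsb, 736.1 of Ctsl and 1349 of Lgals3. The 64 cells with Col2a1 and no Myh11 had 887.5, 531.2, 193.8 and 2912. For comparison, the 1921 cells with Myh11 and no Col2a1 had 4826, 955.5, 383.6 and 301.9. Ctsb and Ctsl were thus highest in the cells with neither gene and lowest in the cells with Col2a1, while Lgals3 was highest in the latter. The 99 KO 2M cells that held both genes were at 4137, 844.4, 359.6 and 634.3. They were nearer the cells with Myh11 alone than the cells with Col2a1 and no Myh11. Their Lgals3 (interval 539.0 to 741.7) still lay above that of the cells with Myh11 alone (286.6 to 317.9).

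Apoe 4M showed the same order, except that Ctsb in cells with neither gene lay within the interval of cells with Myh11 (738.3). Unlike in KO 2M, Lgals3 was not higher in the 150 Apoe 4M cells with both genes (93.3 CPM, 65.0 to 129.8). The 856 Apoe 4M cells with Myh11 alone had 106.5 (93.2 to 121.3). In Apoe 4M the 147 cells with neither gene had 732.0 CPM of Lgals3, 1622 of Lgals1, 751.0 of Ctsb and 634.0 of Ctsl. The 82 cells with Col2a1 and no Myh11 had 1341, 814.6, 361.0 and 248.8. In KO 4M, 1449 of 1471 cells without Myh11 held a Col2a1 UMI, and they had 2235 of Lgals3, 444.4 of Lgals1, 456.3 of Ctsb and 90.0 of Ctsl. Ctsd stood apart from the other cathepsins: it was 1030 and 918.8 without and with Col2a1 in KO 2M and 650.3 and 619.5 in Apoe 4M, with overlapping intervals. In KO 4M Ctsd was 490.9 (323.5 to 714.2) in the 22 cells without Col2a1 and 768.3 (740.0 to 797.3) with it. These intervals did not overlap, but they cover counting error only and not the spread between cells or libraries. Fibroblast markers were also high in cells without Myh11. Of 6 such markers, 4 were listed in Apoe 4M and KO 2M, and they summed to 15383 and 19342 CPM there, against 963.0 and 952.7 in cells with Myh11. Their part in the levels of the members was not tested.

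**Figure D4:**
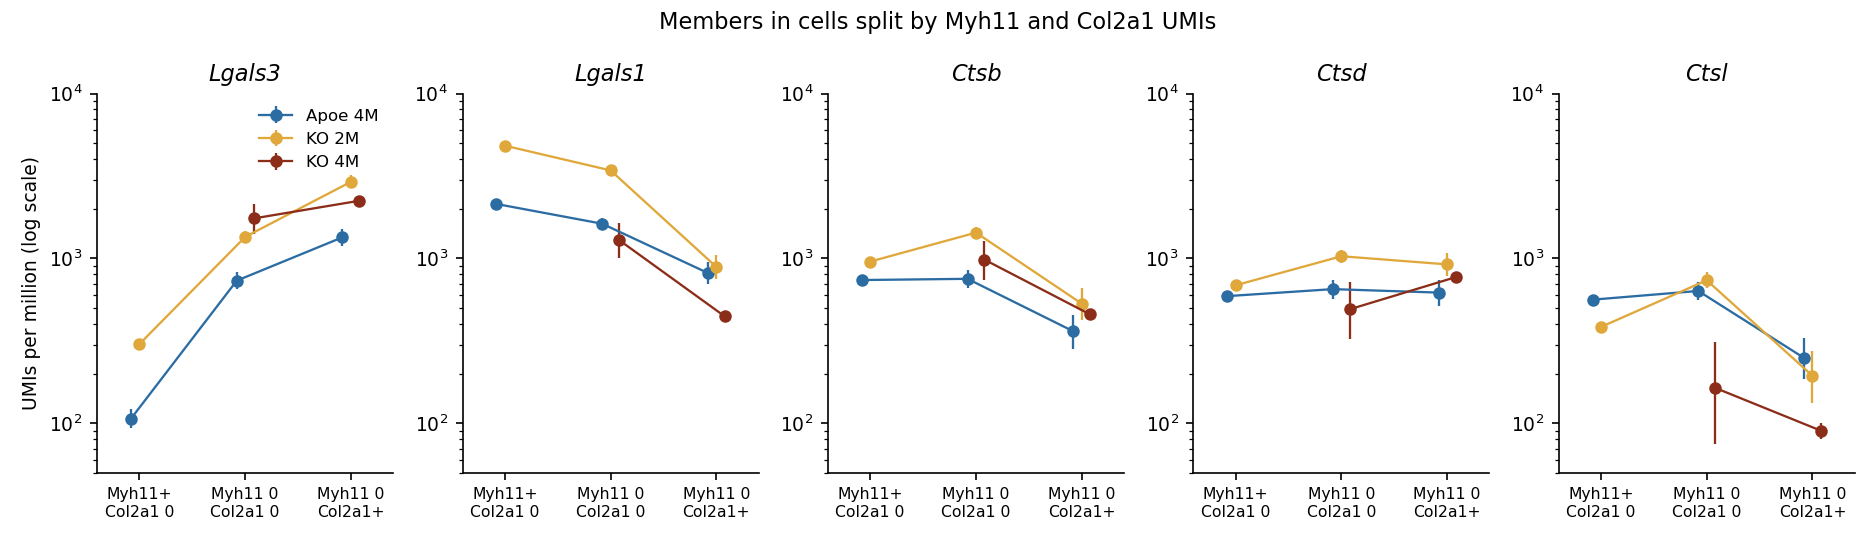
Level of the 5 members in CPM (log axis) in cells with Myh11 and no Col2a1, cells with neither gene, and cells with Col2a1 and no Myh11, for the 3 libraries with enough cells (thinned to 2500 UMIs, exact Poisson 95% intervals, groups under 20 cells left out). From left to right Lgals3 climbs, in KO 2M from 301.9 to 2912, while Lgals1 falls from 4826 to 887.5 and Ctsb and Ctsl are lowest at the right.

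The wider lysosomal and galectin lists gave the setting for the members. Of 26 further cathepsins and other lysosomal enzymes, 24 were tested. Within KO 6 of them rose and 5 fell per month of diet, with a median slope of 0.016 beside -0.0049 for all genes, of which 6.8% rose and 15.7% fell. Those with the lowest adjusted p were Hexa, a subunit of beta-hexosaminidase (0.31 ± 0.04, adjusted p = 0.0158), Fuca1, a fucosidase (0.25 ± 0.04, 0.0253), and Ctsk, the collagen-cleaving cathepsin K of osteoclasts (0.24 ± 0.04, 0.0286), which rose. Tpp1, a tripeptidyl peptidase, fell (-0.13 ± 0.02, 0.0272). Ctsk went from 8.1 CPM in KO ND to 16.8, 35.4 and 135.0 at 1M, 2M and 4M, and in Apoe it went from 8.8 to 6.7, 10.3 and 26.3. Hexa was the 1 gene of the list that passed as higher in cells without Myh11 (0.92 ± 0.20, adjusted p = 0.0360), and 0 passed as lower. Of all genes 1.06% passed as higher and 3.11% as lower. With Apoe 4M, KO 1M or KO 2M left out, 1 gene of all passed as higher. Calls in this comparison, here and below, thus rested on single libraries.

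Of 12 lysosomal membrane genes, 3 rose within KO and 1 fell, beside 6.8% and 15.7% of all genes. Lamp2, a main coat protein of the lysosome (0.22 ± 0.03), Cd63, a tetraspanin (0.24 ± 0.05), and Laptm4a (0.16 ± 0.04) rose. Laptm4b fell (-0.12 ± 0.01), and the adjusted p of these genes ran from 0.0099 to 0.0411. Cd63 stood at 1014, 1077, 1449 and 1721 CPM in KO. In cells without Myh11, 0 of the 12 genes passed as higher and 1 as lower, beside 1.06% and 3.11% of all genes. The proton pump, which acidifies the lysosome, had 0 of 11 tested subunits that rose and 2 that fell, Atp6v1a (-0.12 ± 0.03) and Atp6v0b (-0.13 ± 0.03), a share near the 15.7% of all genes that fell. Of 3 tested members of the TFEB family, the transcription factors that drive lysosomal genes, 0 rose and 1 fell (Tfeb, -0.03 ± 0.01, adjusted p = 0.0443). Among all genes the shares were again 6.8% and 15.7%. The genotype effect had 0 calls in each of these lists, and 0.151% of all genes passed for it. The largest genotype effects were 0.37 ± 0.13 for Fuca1 and 0.36 ± 0.09 for Lgmn, the cysteine protease legumain, among the enzymes. Among the membrane genes they were 0.48 ± 0.20 for Cd63 and 0.31 ± 0.15 for Laptm4a (adjusted p from 0.223 to 0.451 for the 2 lists). Without KO 4M, 0 genes passed for the slope in KO, these included.

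Among other galectins and their partners, Lgals3bp, a secreted glycoprotein that binds galectin-3, was the clearest. Its levels were 14.8, 16.6, 13.2 and 34.3 CPM in Apoe and 33.3, 38.3, 49.6 and 62.1 in KO. In cells with a Myh11 UMI its genotype effect was 0.93 ± 0.13 and passed (adjusted p = 0.0216), the 1 call among 4 tested genes of that list, where 1.4% of all genes passed. In cells with 4 or more Myh11 UMIs the effect was 0.73 ± 0.23 and did not pass (adjusted p = 0.234), nor did the effect of 0.21 ± 0.03 in the mean log2 value of all cells (adjusted p = 0.153). It also rose within KO (0.06 ± 0.01 per month, adjusted p = 0.0411), while Lgalsl, a galectin-like protein, fell (-0.05 ± 0.01, adjusted p = 0.0463). Lgals9 was listed in KO 1M, 2M and 4M at 10.3, 11.6 and 9.0 and at 0 in the other libraries. Of the cathepsin inhibitors, Cst3, the secreted cystatin C, had levels of 2266, 2479, 2686 and 8617 CPM in Apoe, against 1666, 2516, 4336 and 29485 in KO. Cst3 rose within KO (1.01 ± 0.19, adjusted p = 0.0312) and was higher in cells without Myh11 (1.48 ± 0.34, adjusted p = 0.0391). The 2 other inhibitors tested, Cstb and Serpinb6a, passed in neither.

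For reference, 17 of 17 contractile genes fell within KO and 14 of 14 tested chondrocyte and bone genes rose, with median slopes of -0.70 and 0.84. Among the contractile genes, Flna, a filamin that crosslinks actin, fell by 1.00 ± 0.09, Synpo2 by 0.48 ± 0.05, Des, the intermediate filament desmin, by 0.24 ± 0.03 and Ldb3 by 0.18 ± 0.01 (adjusted p from 0.00971 to 0.0182). Among the chondrocyte and bone genes, Col2a1 rose by 1.51 ± 0.32, Spp1, which encodes osteopontin, by 1.01 ± 0.17, Comp by 0.94 ± 0.20 and Ibsp by 0.69 ± 0.14 (adjusted p from 0.0255 to 0.0361). In cells without Myh11, 16 of the 17 contractile genes passed as lower, which counts Myh11, the class gene itself. Of all genes 3.11% did. Of 5 tested chondrocyte and bone genes 2 passed as higher, Sox9 (1.65 ± 0.26) and Comp (2.59 ± 0.56), beside 1.06% of all genes.

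The genes most like each member across the 8 libraries were found by Pearson's r of log2(CPM + 1) among the 7994 genes listed in all of them. For Lgals3 they were Tmem9b (r = 0.993), Anxa5 (0.991), which encodes annexin A5, and Agpat4 (0.991). For Lgals1 they were Msrb1 (0.998), Chmp7 (0.997) and Manbal (0.995). For Ctsl they were Cystm1, Arid1a and Dynll2, for Ctsb Card19, Smdt1 and Guk1, and for Ctsd Mrpl50, Gabarap and Timp1 (0.972), an inhibitor of matrix metalloproteinases. Levels of Timp1 in Apoe were 37.6, 38.1, 126.7 and 332.5 CPM, and those in KO were 66.8, 71.4, 520.5 and 1443. With Myh11, r was -0.81 for Lgals3 and -0.73 for Ctsd, and 0.93, 0.89 and 0.73 for Lgals1, Ctsl and Ctsb. These values describe 8 libraries of which KO 4M stands apart, and they share its weight.

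The members are far apart in the genome (GRCm38, GENCODE vM21, 1-based). On the plus strand, Lgals3 lies on chromosome 14 from 47367751 to 47386160, Ctsb on chromosome 14 from 63122462 to 63145923 and Lgals1 on chromosome 15 from 78926725 to 78930465. On the minus strand, Ctsd lies on chromosome 7 from 142375911 to 142388038, Lyz2 on chromosome 10 from 117277331 to 117282321, Cd68 on chromosome 11 from 69664213 to 69666153 and Ctsl on chromosome 13 from 64359337 to 64370890. Lyz2 has a near-identical neighbour, Lyz1, and reads shared by the pair are uncertain in any count by gene.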

How the data were processed

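The deposited log2 values carry trimmed-mean scaling per cell by the authors, as the file names say. Tools in the submitters' processing notes are UMI-tools, STAR, featureCounts, Subread 1.6.0 and GRCm38. Values back on the linear scale were whole multiples within each cell (100.0% of entries, tolerance 0.01), which gave UMI counts. No cell was removed and no doublet caller was run. Levels are UMIs per 1000000 of a library (CPM). Poisson and Clopper-Pearson 95% intervals cover counting error only.

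The mean log2 value per library was fitted with limma 3.58.1 (R 4.3.3) for 9253 genes. Genotype effects used the diet tables with diet as a factor, and slopes used the time-course tables with genotype as a factor. Genes listed at 0 in some libraries entered as 0. The Benjamini-Hochberg adjustment ran over every gene in a fit, and 0.05 was the threshold. Libraries were the units, and nothing says whether they came from separate mice. Myh11 classes used cells thinned to 2500 UMIs, pooled by class and library with a pseudocount of 10 CPM. Single-diet differences have no test. The fits were tested on simulated data. The Myh11 class fit recovered 5.97% of log2 differences of 0.5, 62.7% of those of 1 and 89.4% of those of 2. Class differences near 0.5 would thus mostly be missed. The genotype fit recovered 76.1% of effects of 0.5, and the common slope fit 85.1% of slopes of 0.2. These rates are over genes drawn at random, each with its own spread. The SE of the genotype effect was 0.55 for Lgals3 and 0.51 for Lgals1, and that of the common slope was 0.17 and 0.18. The rates therefore do not apply to Lgals3 and Lgals1. Named genes were the 7 members, for each list up to 4 genes with the lowest adjusted p past the threshold (or the 2 largest effects where none passed), and the 3 genes most like each member. The members, lists and rules were chosen with earlier results of these data known. Protein sequences were not used here.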

Additional observations from a re-analysis of the deposited data

Results flagged for a closer look

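The difference of Lgals1 between genotypes at 4M stood apart from that on the other diets. KO minus Apoe was -1.87 on the log2(CPM + 1) scale at 4M and 0.79, 0.44 and 0.35 on ND, at 1M and at 2M. Each value compares 1 library with 1 library, and the difference between diets was not tested. In cells with a Myh11 UMI, Lgals1 was higher in KO at 4M too (3094 CPM in 106 cells against 2137 in 1006 cells).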

How the results depend on the processing

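Each genotype and diet had 1 library, so there were no replicate numbers to use as a block. Genotypes were matched by diet and Myh11 classes by library in the fits themselves. Without the 4M libraries 1 member passed for the genotype effect. For the slope in KO, 1 member passed with thinned cells (Lgals3) and 0 without KO 4M, without the 1M, the 4M or the ND libraries. Of all genes, 5.47% passed with thinned cells and 0 in each of the latter fits. For cells without against cells with Myh11, 0 passed with Tagln as the class gene, without marker cells, and without Apoe 4M, KO 1M, KO 2M or KO 4M. Of all genes, 1 passed as higher with Tagln, and 1 without Apoe 4M, KO 1M or KO 2M. At most 1 of Hexa, Cst3, Sox9 and Comp thus kept its call in each of these fits. With Cnn1 as the class gene 1 member passed for the genotype effect in cells at 0. The cause of these changes was not tested. The following signs reversed, all of them in effects that passed in neither fit. For the genotype effect, Ctsb was -0.061 pooled, -0.013 thinned, -0.049 without 2M and -0.021 without ND, and Lgals1 was 0.47 without 4M. Without 4M the common slope was 0.029 for Ctsb and 0.015 for Ctsl. The Apoe slopes of Ctsb, Ctsd and Ctsl were 0.052, 0.082 and 0.030 pooled, 0.023, 0.025 and 0.013 thinned, and 0.0093, 0.023 and 0.041 without 4M, where Lgals1 was 0.10. The KO slope of Ctsb was 0.049 without KO 4M and without the 4M libraries. The difference of slopes without KO 4M was 0.051 for Lgals1, 0.079 for Ctsb and 0.021 for Ctsl, and Ctsb was 0.039 without the 4M libraries. The Myh11 class difference of Ctsb was -0.14 with Tagln, -0.24 with at least 50 cells, -0.076 without marker cells and -0.12 without KO 1M, and that of Ctsl was -0.053 with at least 50 cells and -0.033 without KO 1M. With 4 or more Myh11 UMIs the genotype effect of Ctsd was -0.0051, and in cells without Myh11 that of Ctsb was -0.058 without marker cells. The sign of the fitted Lgals3 effects held under every alternative run, with a KO slope from 0.42 to 1.08 and a class difference from 1.02 to 2.00. Thinning with a second seed left Lgals3 past the threshold but lowered the genes called from 379 to 103. The class comparison without thinning was not run, since 3 libraries had 20 cells in each class. Depth limits Cd68 and Lyz2, which are listed only above 5% of cells.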
